A study of Mus musculus with 6 samples.

Results

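A set of 9 early neural genes was followed in A2.miR200c cells, a mouse embryonic stem (ES) cell line, as these cells differentiated with or without induction of miR-200c and miR-141. The genes were Sox1, Sox3, Sox4, Sox11, Nes, Fabp7, En2, Pax6 and Tubb3, and each was found as the probe sets that carry 1 of these symbols and no other. This gave 9 of the 18193 genes on the arrays and 29 of the 45037 probe sets. The main probe set of a gene is its brightest, by the mean of all 6 arrays.

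RNA came from embryoid bodies, which are floating aggregates of differentiating ES cells, grown in Petri dishes in medium with fetal calf serum. The 3 untreated arrays were from days 3, 4 and 5 of differentiation, and the 3 induced arrays were from dishes of the same days given doxycycline at 500 ng/mL on day 2, with a further addition on day 4, after the day 3 collection. All dishes carried the same inducible construct, so the untreated ones differed from the induced ones by the drug alone. There was 1 array for each treatment and day, no line without the construct was given doxycycline on these arrays, and an effect of the drug itself cannot be told apart from that of the microRNAs. The arrays do not measure mature microRNAs.

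Neural development starts when epiblast cells lose pluripotency and form the neural plate. SOXB1 factors such as SOX1, SOX2 and SOX3 keep neural progenitors from differentiating, PAX6 and EN2 mark regions of the plate, nestin and FABP7 are products of progenitors and radial glia, and SOX4, SOX11 and the tubulin TUBB3 rise as progenitors turn into neurons. Several of these genes are not restricted to neural cells. Sox3 is expressed in the epiblast, Sox4 and Sox11 in many embryonic tissues including mesenchyme, and Nes in early mesoderm and endothelium. Cells cultured in serum without neural inducing conditions form much mesoderm, and these bulk samples mix all the cell types of an embryoid body. In them, fewer cells of a type and less RNA per cell cannot be told apart.

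The microRNAs that were induced are shown with their seeds, bases 2 to 8 from the 5′ end, in capitals, because the seed pairs with target messages and is what sets their target groups apart.
mmu-miR-200c-3p: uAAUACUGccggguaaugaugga
mmu-miR-141-3p: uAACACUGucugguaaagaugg
The sequences are those of RefSeq on GRCm38.p6, where miR-200c-3p lies on the minus strand at chr6:124718324-124718346 and miR-141-3p on the same strand at chr6:124717917-124717938. Counted from the 5′ end, the seeds differ by the substitution U4C, with the base of miR-200c-3p first.

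Values are model-based intensities on a linear scale. A background of 36.7 was set at the 95th percentile of 78 receptor genes of smell and taste, which are not expected in these cells, and each array had 48.8 to 50.1% of its probe sets above it. Differences are given on the log2(intensity + 50) scale, which damps changes of dim probe sets, and folds are taken from that scale. Intensities of different probe sets are not compared with each other. Genes whose highest value reached 80.1, the median of all gene values, were tested, which kept 9997 genes and 8 of the 9 members. Pax6 did not reach this value and has no test.

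Levels bore out the name early neural genes only in part. Sox1, the gene of a factor confined to neural progenitors at these stages, was above background on day 3 and below it on days 4 and 5 in both treatments. Pax6, which specifies forebrain, eye and hindbrain progenitors, was above background on 1 array. Above background on at least 5 arrays were 6 members, Sox3, Sox4, Sox11, Nes, Fabp7 and En2. They could be followed to day 5 and are described here as genes rather than as a measure of neural cells.

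More members passed the test for time than for treatment. From day 3 to day 5, over both treatments, Sox4, Fabp7 and Sox11 rose, 3 of 8 members tested beside 20.6% of all genes. Sox3, Tubb3 and Sox1 fell, 3 of 8 beside 19.2%. Sox1 and Tubb3 passed the filter for testing through day 3 arrays only, which favours a fall. Sox11 and Fabp7 were called in only 7 and 6 of 15 alternative settings. For an effect of induction common to the 3 days 0 of 8 members passed the test, and 0% of all genes. In the main probe sets, untested, the induced arrays read higher for Nes and lower for Sox11, En2 and Fabp7 on each day. Sox3 read higher on days 4 and 5. On day 3 the second Nes probe set and 2 of the 6 Sox11 probe sets went the other way.

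**Figure D1:**
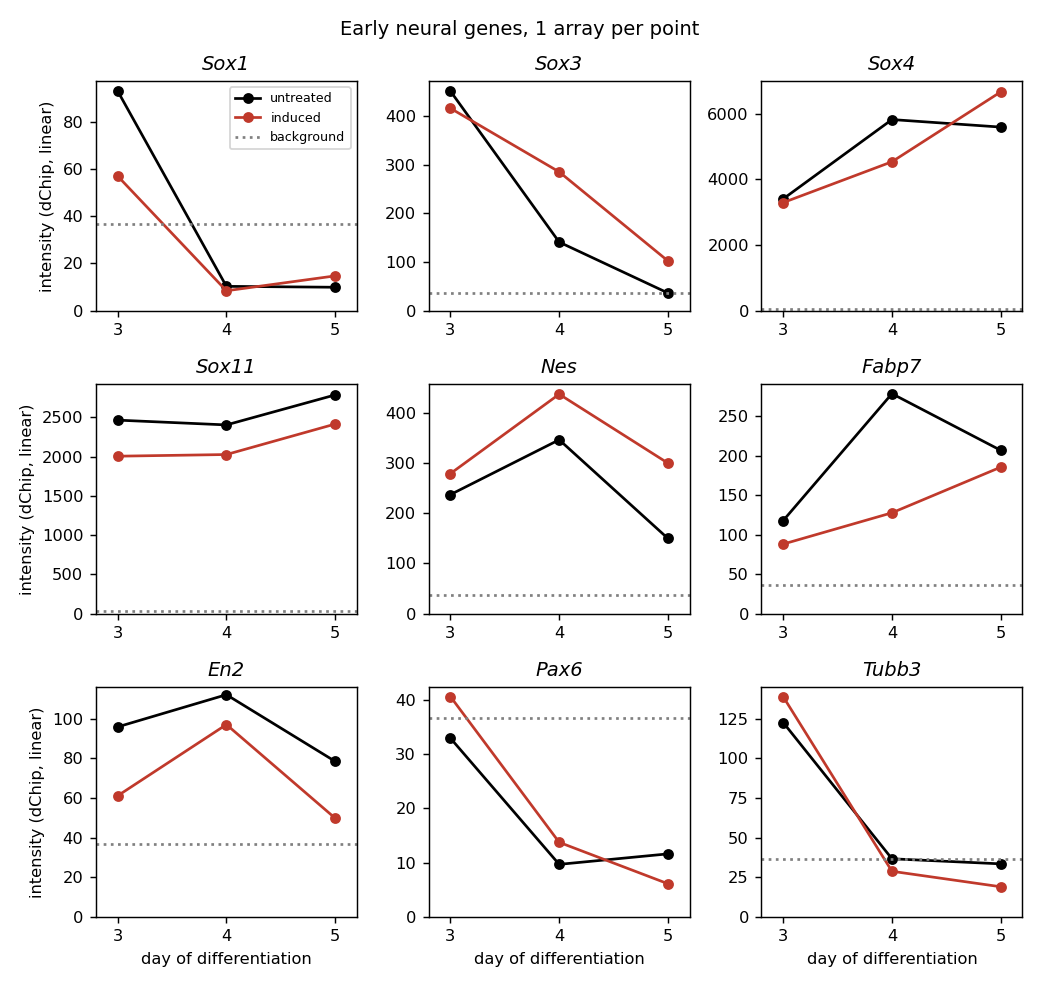
Intensity of the main probe set of each gene (linear axis, separate for each gene) against the day of differentiation, 1 array per point, with untreated arrays in black and induced arrays in red and the background of 36.7 as a dotted line. Sox1 and Tubb3 dropped to or under background after day 3, Sox3 was higher with induction on days 4 and 5, and the Sox11 and En2 lines of the induced arrays lay under the untreated ones on each day.

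The SOXB1 genes Sox1 and Sox3 both fell. Sox1 (Entrez Gene 20664) read 93.0, 10.3 and 9.89 untreated over days 3, 4 and 5 and 57.0, 8.40 and 14.7 induced. Both day 3 arrays were above all arrays of later days, which were under background. The gene fell by 0.99 from day 3 to day 5 on the log2 scale (SE 0.18, limma adjusted p = 0.0124), and since its day 5 arrays were not above background the fall is given as at least 1.43-fold. It was called lower by day 4 too (adjusted p = 0.0360), again by at least 1.43-fold, the day 4 arrays being under background. Sox1 passed the filter for testing through the untreated day 3 array only, which favours a fall, so both calls are a description. With induction the day 3 level was lower by 0.42 on the log2 scale, a value of 2 arrays without a test, and the differences on days 4 and 5 lay between arrays under background. Averaged over the days the difference was -0.12 ± 0.27 (SD over 3 days, n = 3; adjusted p = 0.812). The other probe set of Sox1 was under background on all 6 arrays.

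Sox3 (Entrez Gene 20675), whose product acts with SOX2 in the epiblast and then in neural progenitors, gave 451, 141 and 36.2 in untreated cells over days 3, 4 and 5, and 416, 285 and 102 in induced cells, and the untreated day 5 array had reached background. The treatments were close on day 3 and the induced array was above the untreated one on both later days. The log2 difference, induced minus untreated, was -0.11 on day 3, 0.81 on day 4 and 0.82 on day 5, which is 1.76-fold for day 4 and at least 1.75-fold for day 5. The mean over days was 0.51 ± 0.53 (SD, n = 3; SE 0.21; adjusted p = 0.573), and the change of the effect per day was 0.46 (SE 0.15; adjusted p = 0.291). Neither passed the test. The fall from day 3 to day 5 did, at -2.08 on the log2 scale (SE 0.25, adjusted p = 0.00494). The untreated array of day 5 was at least 5.78-fold below that of day 3, and the induced one 3.06-fold.

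The second Sox3 probe set gave smaller differences from the same RNA. It read 281, 236 and 166 untreated over days 3, 4 and 5 and 236, 286 and 178 induced. The induced array was again the lower one on day 3 and the higher one on days 4 and 5, but by 0.23 on day 4 and 0.07 on day 5 on the log2 scale, and its untreated change from day 3 to day 5 was -0.62. The direction on each day was thus shared by both probe sets, and the size was not.

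The SOXC genes Sox4 and Sox11 encode factors that switch on neuronal genes in cells leaving the progenitor state and are active in many other embryonic tissues. Sox4 (Entrez Gene 20677) gave 3408, 5828 and 5598 in untreated cells over days 3, 4 and 5, and 3295, 4541 and 6671 in induced cells. Each array of days 4 and 5 was above both day 3 arrays. The rise from day 3 to day 5 was 0.86 on the log2 scale (SE 0.14, adjusted p = 0.00983), with 0.71 in untreated and 1.01 in induced cells. The induced level was lower on day 4, by 1.28-fold, and higher on day 5, by 1.19-fold. The mean difference over days was -0.05 ± 0.30 (SD, n = 3; adjusted p = 0.902).

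Sox4 had 8 probe sets, of which 6 were above background on all arrays and 2 were below it on all arrays. On day 4 all 6 were lower with induction, by -0.41 to -0.25 on the log2 scale. On day 5 all 6 were higher, by 0.13 to 0.87, while on day 3 there were 4 lower and 2 higher. From day 3 to day 5 the level went up in 5 of the 6 in untreated cells and in 6 of 6 in induced cells. Probe sets of a gene share each array's RNA and do not stand for replicates.

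Sox11 (Entrez Gene 20666) read 2464, 2403 and 2785 untreated over days 3, 4 and 5 and 2005, 2026 and 2414 induced. The induced array was below the untreated array of the same day each time, by 1.22-fold, 1.18-fold and 1.15-fold in turn. The mean difference was -0.24 ± 0.044 (SD over 3 days, n = 3; SE 0.046; adjusted p = 0.573). The spread over days was small beside the difference, but the call was not made after adjustment over the 9997 genes. The rise from day 3 to day 5 passed the test, at 0.22 on the log2 scale (SE 0.056, adjusted p = 0.0337).

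All 6 probe sets of Sox11 were above background on every array. With induction all 6 were lower on day 4, by -0.36 to -0.24, and all 6 were lower on day 5, by -0.39 to -0.20, whereas on day 3 there were 4 lower and 2 higher, from -0.29 to 0.09. All 6 were higher on day 5 than on day 3 in both treatments. The main probe set had the smallest change, 0.17 of a range of 0.17 to 1.17 in untreated cells and 0.26 of 0.26 to 1.01 in induced cells. The second probe set gave 1246, 2078 and 2429 in untreated cells over days 3, 4 and 5, and 1170, 1605 and 1842 in induced cells.

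The sequence just upstream of the start of Sox11 and Sox4 is shown because these SOXC genes were called higher on day 5 and were higher in both treatments, with each CCAAT box in capitals on either strand (CCAAT or ATTGG). Both are RefSeq sequences of GRCm38.p6, 250 bases before the start of the gene, read along the gene on the minus strand.
Sox11, chr12:27342719-27342968: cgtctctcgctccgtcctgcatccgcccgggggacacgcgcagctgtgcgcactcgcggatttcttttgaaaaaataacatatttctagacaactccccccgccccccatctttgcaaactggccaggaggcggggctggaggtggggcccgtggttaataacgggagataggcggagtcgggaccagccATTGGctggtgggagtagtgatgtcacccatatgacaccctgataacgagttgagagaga
Sox4, chr13:28953700-28953949: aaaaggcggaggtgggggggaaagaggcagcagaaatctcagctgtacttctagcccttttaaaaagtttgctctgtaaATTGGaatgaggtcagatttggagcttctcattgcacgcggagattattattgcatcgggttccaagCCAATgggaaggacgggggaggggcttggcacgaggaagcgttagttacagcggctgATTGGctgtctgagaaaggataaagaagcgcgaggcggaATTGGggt
Fabp7, the other member called higher, held 2 CCAAT boxes in its window, which is not shown. Promoters were found for 7 of the 9 members. The Sox4 window held 4 CCAAT boxes and the Sox11 window 1, with 50.8% and 58% G and C beside a median of 52.4% over 32851 promoters. A CCAAT box was in 33.8% of all promoters of this length. The Zeb and Snail E-box CACCTG (17.2% of promoters), the SOX core AACAAT (9.42%) and the TATA box TATAAA (12.4%), searched on both strands, had no match in the windows of the 7 members. A match is a description of these letters only.

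**Figure D2:**
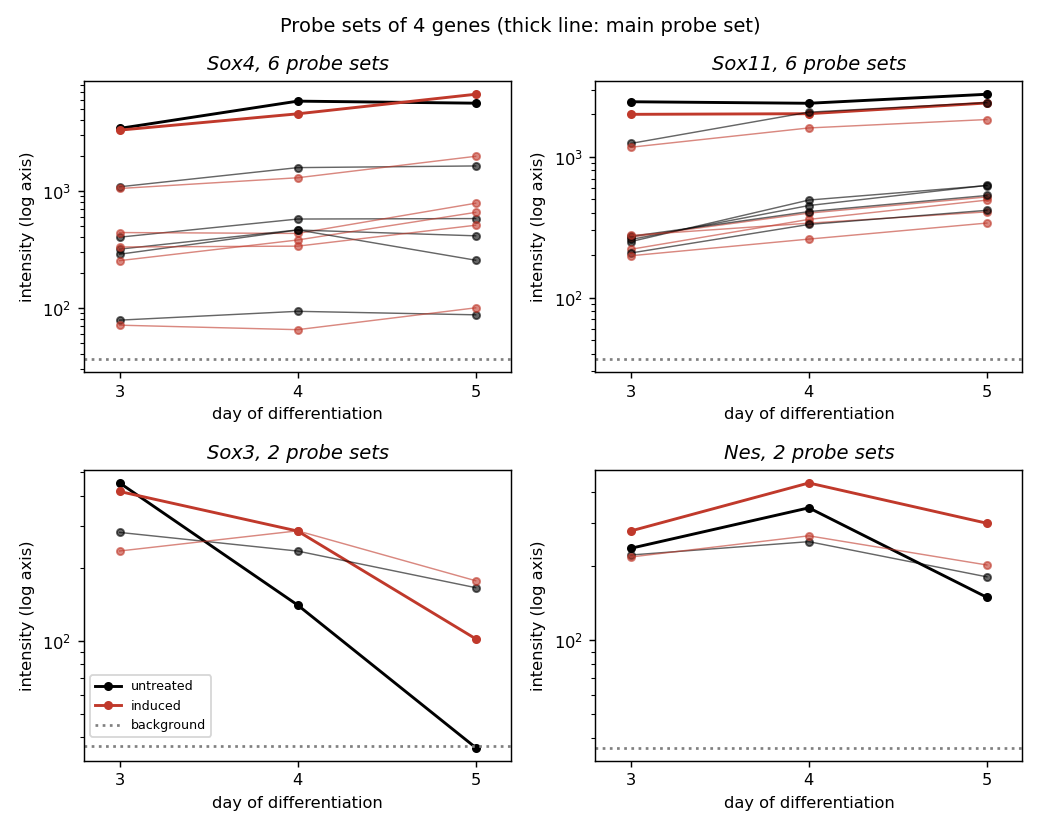
Intensity (log axis) against the day of differentiation for the probe sets of Sox4, Sox11, Sox3 and Nes that were above background on all arrays, together with each main probe set (thick lines), untreated in black and induced in red. In all 6 Sox4 probe sets the induced line is the lower one on day 4 and the higher one on day 5, the untreated Sox11 lines are above the induced ones on days 4 and 5, and the main probe set of Sox3 falls further than the second.

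Nes (Entrez Gene 18008), the gene of the intermediate filament protein nestin, read 237, 346 and 150 untreated over days 3, 4 and 5 and 279, 437 and 299 induced. The induced array was the higher one on each day, and in both treatments day 4 was the highest. The differences were 0.20, 0.30 and 0.81 on the log2 scale, the last of them 1.75-fold. Their mean was 0.43 ± 0.33 (SD, n = 3; SE 0.14; adjusted p = 0.573) and their change per day was 0.31 (SE 0.10; adjusted p = 0.308). From day 3 to day 5 the untreated level went from 237 to 150 and the induced level from 279 to 299, and the change over both treatments, -0.22, did not pass the test (adjusted p = 0.352). The second Nes probe set gave 222, 252 and 181 in untreated cells over days 3, 4 and 5, and 218, 266 and 203 in induced cells, so that its induced values were higher on days 4 and 5 only, by 0.07 and 0.13.

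Fabp7 (Entrez Gene 12140), the gene of a fatty acid binding protein of radial glia, read 118, 278 and 207 untreated over days 3, 4 and 5 and 88.1, 128 and 185 induced. It was lower with induction on each day. Its difference on day 4, -0.89 on the log2 scale or 1.85-fold, was larger than those on days 3 and 5. The mean over days was -0.43 ± 0.40 (SD, n = 3; SE 0.17; adjusted p = 0.573). The untreated level was highest on day 4 and the induced level on day 5. The rise from day 3 to day 5, 0.69 on the log2 scale, passed the test narrowly (SE 0.20, adjusted p = 0.0475). Fabp7 had 1 probe set.

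En2 (Entrez Gene 13799), which encodes a homeodomain factor of the midbrain and anterior hindbrain, gave 96.0, 112 and 78.5 in untreated cells over days 3, 4 and 5, and 61.1, 97.1 and 49.8 in induced cells. All its arrays were above background, and on each day the induced array was the lower one. The mean difference was -0.30 ± 0.14 (SD, n = 3; SE 0.10; adjusted p = 0.573). Its change from day 3 to day 5 was -0.17 (adjusted p = 0.322). En2 had 1 probe set.

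Pax6 (Entrez Gene 18508) read 32.9, 9.66 and 11.6 untreated over days 3, 4 and 5 and 40.6, 13.7 and 6.09 induced. The induced day 3 array was the only one above background, and 4 of the 5 Pax6 probe sets were below background on all arrays. No fold is given.

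Tubb3 (Entrez Gene 22152), the gene of a beta-tubulin that marks young neurons, gave 123, 36.6 and 33.4 in untreated cells over days 3, 4 and 5, and 139, 28.8 and 19.0 in induced cells. The day 3 arrays stood above all others, which were at or under background. Tubb3 passed the filter for testing through day 3 arrays only, which favours a fall, so its calls are a description. The fall from day 3 to day 5 was -1.25 on the log2 scale (SE 0.15, adjusted p = 0.00465), given as at least 2.08-fold because the day 5 arrays were not above background, and it was called on day 4 too, again at least 2.08-fold (adjusted p = 0.0292). The mean difference with induction was -0.09 ± 0.21 (SD, n = 3; adjusted p = 0.821).

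For induction over the 3 days, 0 of 8 members and 0% of the 9997 genes passed limma's test after Benjamini-Hochberg adjustment at 0.05. At an unadjusted p under 0.05 there were 842 genes, 4 of them members (Sox11, Nes, En2 and Fabp7). Of the 8 tested members 4 had the same sign on all 3 days in their main probe set, as 33.6% of all genes tested did. The change of the effect per day called 0 of 8 members and 0% of genes, with 1322 genes and 2 members (Sox3 and Nes) at an unadjusted p under 0.05. In the fit that lets the effect change by day, 145 genes and 0 members were called for induction, Sox11 at an adjusted p of 0.0750, Nes at 0.0824 and Sox3 at 0.115.

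Within a day 0 members were 2-fold apart on the log2(intensity + 50) scale, but with 16 added in place of 50 there were 2, Fabp7 on day 4 and Sox3 on day 5, and the Sox3 value of day 5 is only a lower bound. The background of genes at least 2-fold apart was 0.02% on day 3, 0.58% on day 4 and 3.49% on day 5. There were 6 members lower and 2 higher with induction on day 3, 6 lower and 2 higher on day 4, and 4 lower and 4 higher on day 5. Of the 9997 genes tested 4817, 4593 and 4673 were lower on days 3, 4 and 5. The median absolute log2 difference of the members was 0.24 on day 3, 0.27 on day 4 and 0.26 on day 5, beside 0.086, 0.10 and 0.15 over all genes tested. This median was much the same on each day, while that of all genes was larger on the later days. It includes Sox1 and Tubb3, whose arrays of days 4 and 5 were under background. Single members did change by day, Sox3 from -0.11 to 0.81 and 0.82, Nes from 0.20 to 0.30 and 0.81, and Fabp7 from -0.28 to -0.89 and -0.13. The signed medians of the members were -0.19, -0.14 and -0.0068, beside 0.0048, 0.015 and 0.016 over all genes.

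**Figure D3:**
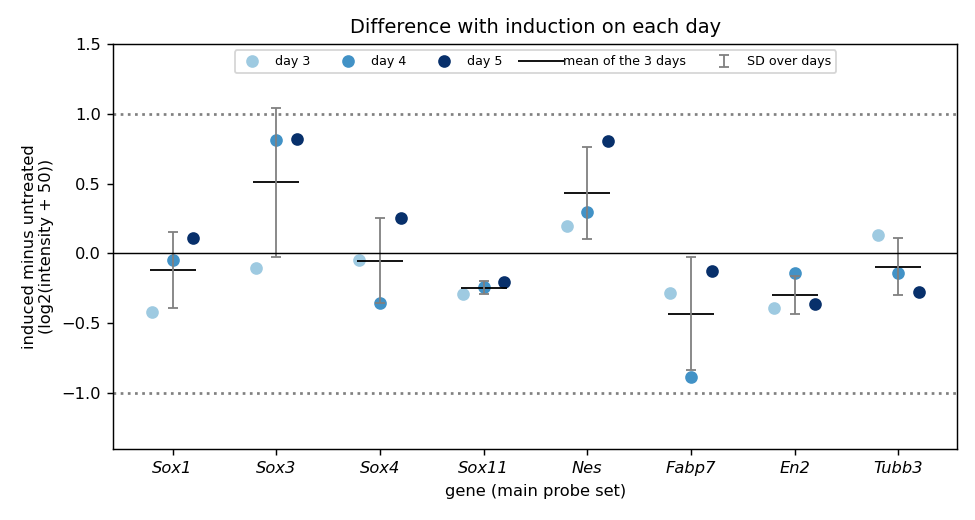
Difference between the induced and untreated array, log2(intensity + 50), for each tested member on day 3 (light), day 4 (middle) and day 5 (dark), with the mean of the 3 days as a line and the SD over days as a bar; dotted lines mark 2-fold. No point reaches 2-fold on this scale, the day 5 point of Sox3 being a lower bound, the 3 Sox11 points lie close together below 0, and the Sox3 and Sox4 points fall on both sides of 0.

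The 6 members called between days 3 and 5 stand beside a background in which changes with time were common, with 2062 genes called higher and 1922 lower. From day 3 to day 4, a comparison added after the values were seen, 2 members (Sox1 and Tubb3) were called lower against 4.54% of genes, and 0 higher against 4.44%, with 6 of 8 members and 3198 of the 9997 genes at an unadjusted p under 0.05. From day 4 to day 5, 0 members were called against 6.13% of genes, with 4 of 8 (Sox3, Nes, Sox11 and En2) and 3136 of the 9997 genes at an unadjusted p under 0.05 in limma's test. The falls of Sox1 and Tubb3 were complete by day 4 as far as the background allows. Both genes had entered the test through day 3 arrays only, which favours a call of lower on day 4 and day 5. The rises of Sox4 and Fabp7 to day 4 were 0.61 and 0.67 on the log2 scale, at adjusted p of 0.0605 and 0.0983.

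Within each treatment, counted on the values as measured and without a test, 3 members were at least 2-fold lower on day 5 than on day 3 in untreated cells (Sox1, Sox3 and Tubb3), beside 4.86% of genes, and 0 were 2-fold higher, beside 5.93%. Held to the background, the untreated falls are at least 5.78-fold for Sox3, at least 1.99-fold for Tubb3 and at least 1.65-fold for Sox1, so that only Sox3 has a bound past 2-fold. In induced cells 2 were 2-fold lower (Sox3 and Tubb3), beside 3.07%, and 1 was higher (Sox4), beside 4.67%. The Sox3 change was -2.54 untreated and -1.61 induced on the log2 scale, and that of Nes was -0.52 and 0.09. For Tubb3, whose day 5 arrays were under background, the bounds were at least 1.99-fold lower untreated and at least 2.18-fold lower induced, and no order is read from them.

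**Figure D4:**
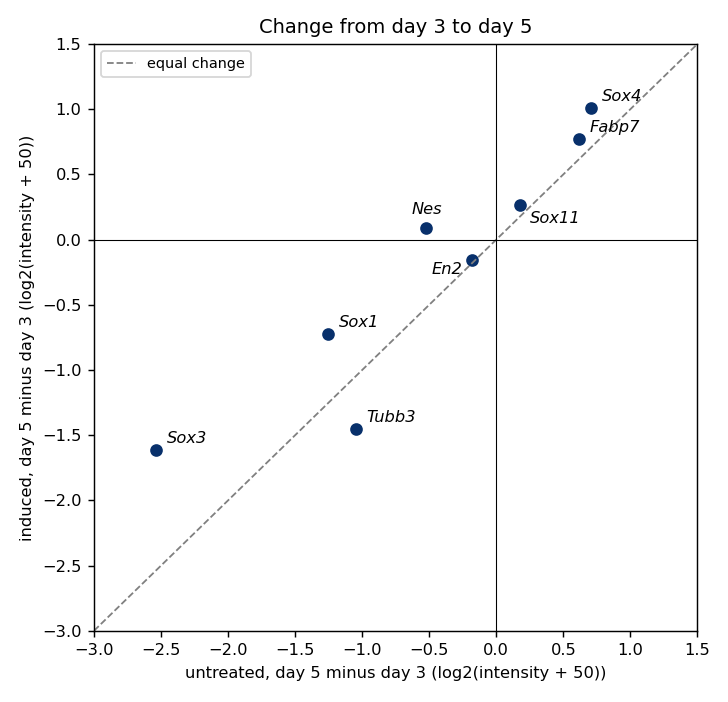
Change from day 3 to day 5 in untreated cells (x axis) against that in induced cells (y axis), log2(intensity + 50), for the 8 tested members, 1 array at each end of each change. Points above the dashed line of equal change went down less or up more with induction, with Sox3 and Nes furthest above it. The day 5 arrays of Sox1 and Tubb3 and the untreated one of Sox3 were under background, so the places of these points are not exact.

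The calls from day 3 to day 5 differed in how well they held. Sox3 and Tubb3 were called in 15 of 15 alternative settings, Sox1 in 12 of the 13 that tested it and Sox4 in 12 of 15. Settings that changed the probe sets reused the main values of Tubb3 and Fabp7, which had 1 probe set each. The setting with the next probe set also reused those of Sox1. For Sox1 and Tubb3, which entered the main test through day 3 arrays only, a fall was favoured by that selection. Sox11 was called in 7 of 15, with its change between 0.17 and 0.78 on the log2 scale and its adjusted p between 0.00499 and 0.174, and Fabp7 in 6 of 15, with adjusted p between 0.0107 and 0.217. Without the untreated day 3 array 2 members were called and without the induced day 3 array 3.

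Other genes of neural development gave the setting for these members. Of the neural progenitor regulators, 17 of 22 genes analysed were tested, and 7 rose and 3 fell from day 3 to day 5, with none called for induction. The shares of all genes, for this list and those below, were 20.6% rising and 19.2% falling. Sox2, the SOXB1 partner of Sox3 in epiblast and neural progenitors, read 5581, 2928 and 1120 untreated over days 3, 4 and 5 and 5335, 3470 and 2190 induced. It fell from day 3 to day 5 (-1.77 on the log2 scale, adjusted p = 0.00591) and its day 5 difference was 0.94. Its directions within days were those of Sox3, close on day 3 and higher with induction on days 4 and 5. Pou3f1, a POU factor of the epiblast and early neural plate, fell from 3711 untreated and 3610 induced on day 3 to 103 and 422 on day 5 (adjusted p = 0.00342). The zinc finger genes Zic2 and Zic5 also ended higher with induction on day 5, at 234 untreated and 846 induced for Zic2 and 207 and 876 for Zic5. Zic5, Zic2 and Pou3f1 were named for the size of their day 5 difference. Of the 17 tested regulators 9 were higher and 8 lower with induction on that day, with a median log2 difference of 0.062. For this list and those below, the day 5 background was 5323 of the 9997 genes tested higher with induction.

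Cdh2, the gene of N-cadherin, which is made by neural plate and by mesoderm, rose from 969 untreated and 894 induced on day 3 to 6003 and 6653 on day 5 (adjusted p = 0.00342). On day 4 it was 5238 untreated and 2608 induced. Sox4 had the same directions within days, lower with induction on day 4 and higher on day 5.

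Genes of single regions of the neural plate were mostly not detected. Of 25 analysed, 13 were below background on all arrays and 5 were tested, with 1 higher on day 5 than on day 3 and none lower. Otx2, a forebrain and epiblast factor, was 340 untreated and 1669 induced on day 5, and Fgf8, a signal of the midbrain-hindbrain border and of the primitive streak, was 283 and 1239. Fgf15, a growth factor of the neural tube, went the other way, at 830 untreated and 104 induced. Of the 5 tested, 2 were higher and 3 lower with induction on day 5. En2 was the 1 regional gene among the members above background on all arrays, and its day 5 values were 78.5 untreated and 49.8 induced.

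Of the proneural and neuronal genes, 13 of 26 were tested, and 7 fell and 1 rose from day 3 to day 5. The neurofilament gene Nefl fell from 5249 untreated and 5574 induced on day 3 to 1097 and 2960 on day 5 (adjusted p = 0.0160), and Ina, of another neuronal filament, from 1668 and 1747 to 180 and 378 (adjusted p = 0.00350). Tubb3 fell with them over time. On day 5, however, Nefl, Nefm, Ina and Stmn2 were higher with induction, and Tubb3 was 33.4 untreated and 19.0 induced, both under background. Of the 13 tested, 9 were higher and 4 lower with induction on day 5. The gene that rose was Isl1, a factor of motor neurons and of cardiac mesoderm, from 80.3 untreated and 75.1 induced to 664 and 512.

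Close relatives of the members were looked at in the same way. Of 10 tested out of 16, 3 rose and 2 fell from day 3 to day 5, beside 20.6% and 19.2% of all genes. Vim, the intermediate filament gene of mesenchyme and of neural progenitors, rose to 10224 untreated and 7356 induced on day 5. It was lower with induction on each day, where the main probe set of Nes was higher on each day. The second Nes probe set was slightly lower on day 3.

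Markers of other cell types moved over the same arrays. Sums over a list are weighted to its brightest probe sets and can differ in direction from most of its genes. The 14 mesoderm markers analysed summed to 1248, 15570 and 20220 in untreated cells over the 3 days. In induced cells the sums were 947, 7476 and 19020. Of 12 tested, 11 rose and none fell. Among those that rose, Foxf1 and Col1a1 passed the filter for testing through day 5 arrays only, which favours a rise. All 12 tested markers were lower with induction on day 4, as were 4593 of the 9997 genes tested. For Foxf1 and Col1a1, at least, that difference lay between arrays under background. Of the 8 tested members 6 were lower on that day, among them Sox1 and Tubb3 between arrays under background. On day 3, when the median difference of the mesoderm markers was -0.047, 6 of the 8 members were lower too. The 10 epiblast and pluripotency markers summed to 45960, 41990 and 16210 untreated and to 46780, 45560 and 33360 induced. All 10 were higher with induction on day 5, as were 5323 of the 9997 genes tested. Of the 8 tested members 4 were higher on that day (Sox3, Sox4, Nes and Sox1) and 4 lower (Sox11, Fabp7, En2 and Tubb3). The day 5 arrays of Sox1 and Tubb3 were under background. On these arrays 1 mesoderm marker and 0 epiblast markers were below background on all arrays. The part of these cell types in the members' values was not tested.

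The surface ectoderm and epithelial markers were higher with induction in 7 of 7 tested on days 4 and 5. Of the 9997 genes tested, 5402 and 5323 were higher on these days. The sum over the 11 epithelial markers went from 15710 untreated and 17610 induced on day 3 to 19670 and 30260 on day 5. Krt8 alone went from 767 to 7013 untreated, while the median untreated change of the list was -0.86 on the log2 scale. The 11 neural crest and placode markers summed to 1207, 1343 and 4819 untreated and to 1106, 1070 and 1907 induced. Of 8 tested, 3 rose and 1 fell. Snai2, among those that rose, passed the filter for testing through day 5 arrays only, which favours a rise. On day 5, 3 of the 8 were lower with induction (Snai2, Ets1 and Msx1) and 5 were higher, with a median log2 difference of 0.18, so the lower day 5 sum does not describe most of the list. The 8 markers of primitive and visceral endoderm summed to 841, 3533 and 5399 untreated and to 749, 2415 and 6598 induced, and 3 of 6 rose. ES cells of this line are kept on fibroblast feeders and were passaged once without them before differentiation. The 7 feeder fibroblast markers summed to 213, 264 and 852 untreated and to 206, 229 and 307 induced, and 3 of 3 tested rose. Of these, Fbln2 and Postn passed the filter for testing through day 5 arrays only, which favours a rise. Several of the feeder markers are also genes of mesenchyme, and their part in the members' values was not tested either.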

How the data were processed

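RNA of 6 samples was hybridized to Affymetrix MOE430 2.0 arrays. The deposited values are intensities that the authors normalized and modelled in dChip, 1 linear value per probe set. Probe sets were named through the platform annotation, by which 34945 had a single symbol, 932 had several and 9160 had none. Values were taken as log2(intensity + 50) and fitted across all 9997 genes tested with limma 3.58.1 in R 4.3.3 (lmFit, then eBayes with trend, two-sided tests, Benjamini-Hochberg adjustment over these genes). Induction and day were additive terms, with 2 residual and 3.05 prior degrees of freedom, and treatment by linear day was a second fit, with 1 residual degree of freedom. The error is the departure of daily differences from a constant effect, and precision is limited by how few arrays there are. Pairs of single arrays were compared at 2-fold, untested. The scripts were tested on simulated data. Members and lists were chosen with earlier results of these data known. Named genes were all members, up to 3 genes of each list by day 5 difference and up to 2 by change from day 3 to day 5, and the 2 closest patterns per member; of these, only a selection is printed for lists. Median intensity per array was 34.51 to 36.94. Alternatives were another pseudocount (16 or 100), filter, scaling, probe set rule, variance trend, day term and leaving out arrays.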

Additional observations from a re-analysis of the deposited data

Results flagged for a closer look

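The induction difference of Sox3 and Sox4 had opposite signs on different days. For Sox3 it was -0.11 on day 3 and 0.81 on day 4 on the log2 scale, so that day 4 exceeded day 3 by 0.92. For Sox4 it was -0.05 on day 3, -0.36 on day 4 and 0.25 on day 5, so that day 5 exceeded day 3 by 0.30 and day 4 by 0.61. Each value rests on 1 array per treatment and day, and these differences between pairs of days were not tested. Over all 3 days, the change of the effect per day gave an adjusted p of 0.291 for Sox3 and 0.640 for Sox4.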

How the results depend on the processing

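Induction called 0 members under each of the 14 alternatives (Sox1 was tested in 12), and 145 genes in all with treatment by linear day added and 2 without day 5, beside 0 otherwise. The change per day called 11 genes at a pseudocount of 100 and 0 at 50. The 6 members called from day 3 to day 5 became 3 with the mean of all probe sets and 2 to 6 when an array was left out, and all genes called, 3984 with all arrays, ranged from 1362 to 4254. At a pseudocount of 16, 2 within-day differences reached 2-fold (Fabp7 on day 4 and Sox3 on day 5), not 0. Changes of 2-fold within a treatment, 6 in the main setting, were 3 at a pseudocount of 100, 3 with the mean of all probe sets and 3 with the next probe set of each member, an alternative chosen after seeing the data. Among tested values signs turned in 7 cases. The Sox4 induction difference was 0.018 with the mean of all probe sets and -0.20 to 0.10 with a day left out, and that of Sox1 was -0.23 to 0.033. The Nes change from day 3 to day 5 was -0.50 to 0.063 with an array left out. The change per day of En2 was -0.021 after quantile normalization, and that of Sox11 was -0.11 with the mean of all probe sets and -0.15 with the next probe set. Among untested values, Sox1 on day 5, under background in both treatments, went from 0.11 to -0.047 with the mean of all probe sets, and the Nes change from day 3 to day 5 in induced cells from 0.09 to -0.15 with that mean and to -0.087 with the next probe set. The cause was not tested. Of 110 alternative values of single members for induction 107 kept direction and call, and of 118 for day 5 minus day 3, 95 did. The counts of members called are not among these values. Most settings called 0 genes in all for induction, so a kept call there says little. The day term pairs the arrays of a day; the fit without it also called 0 members.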

Other observations

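The genes whose pattern over the 6 arrays was most like that of a member are given as a description, since all of them share the arrays, treatments and days. For Sox3 these were Mrps34 (Pearson r = 0.998) and Pycard (r = 0.998), for Sox4 Rpgr (r = 0.999) and Tmem198b (r = 0.998), and for Tubb3 Bloc1s2 (r = 0.997) and Srrt (r = 0.997). For Sox1 they were Plrg1 and Pdzd8, for Nes Dhx40 and Cdk9, and for Fabp7 Rab3il1 and Il1f10, with r of 0.990 to 0.993. The closest patterns were looser for Sox11, at 0.989 for Cdk11b and 0.970 for Myg1, and for En2, at 0.974 for Hba-a2 and 0.973 for Mphosph10. Pycard, an inflammasome adaptor, gave 431, 228 and 107 in untreated cells over days 3, 4 and 5, and 446, 338 and 181 in induced cells.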
